A study of Mus musculus with 21 samples.

Results

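B and T lymphocyte genes were followed in the ileum and colon of mice with different forms of VDR, the receptor of active vitamin D (1,25D3). They are 9 of the 21441 genes in the deposited tables, chosen by symbol, and all 9 were found in all 6 tables: Coro1a, Cd79a, Cd79b, Ms4a1, Cd3e, Cd3g, Cd8a, Cd4 and Il7r. Poly(A) RNA was sequenced in 21 samples from C57BL6J mice. The treated group held 3 ileum and 3 colon samples from CDX2-VDR transgenic mice, which lack VDR of their own and carry human VDR in the distal intestine, after 3 doses of 1,25D3 (1 ng/g each, 48, 24 and 6 h before they were killed). The uninjected group held 3 ileum and 4 colon samples from the same transgenic line with no treatment. The KO group held 4 ileum and 4 colon samples from untreated mice with floxed Vdr and the tamoxifen-inducible Cre of the villin promoter, which directs the deletion to the gut epithelium and not to lymphocytes. Whether and when tamoxifen was given is not given in the sources used here. Treated mice were males of 9 weeks and KO mice males of 9 or 11 weeks, whereas 3 of 4 uninjected colon samples and 2 of 3 uninjected ileum samples were labelled female (9 weeks) and the others male (10 weeks). Sex, age, the transgene and the way VDR was lost therefore coincide in part with the groups and cannot be told apart. Since the labels name no animal, a p-value here measures sample spread, which may be technical.

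B lymphocytes recognise antigen with a membrane immunoglobulin that signals through a pair of chains, CD79A and CD79B. T lymphocytes do so with a receptor that signals through the CD3 chains, helped by the coreceptors CD8 and CD4, which bind class I and class II MHC. In the mouse ileum B cells gather in Peyer's patches and in small isolated follicles, and T cells lie both in the lamina propria and between epithelial cells, where many carry CD8. Most of these genes are silent in epithelial cells, so in RNA of a tissue piece they mark how much lymphocyte RNA it holds. In such bulk RNA, fewer cells of a type and less RNA per cell cannot be told apart.

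The signalling chains share the immunoreceptor tyrosine-based activation motif (ITAM), whose paired tyrosines are phosphorylated by Src-family kinases when the receptor binds antigen. The ITAM coding sequences are shown because the 4 chains are the receptor parts followed here, and the codons of the paired tyrosines are in capitals. A further tyrosine codon (tat) inside the Cd3g stretch is left in lower case. They come from the GENCODE vM1 transcripts on NCBIM37 (mm9), with an intron inside each span.
Cd79a, chr7:25686315-25686488, plus strand: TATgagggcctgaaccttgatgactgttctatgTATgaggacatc
Cd79b, chr11:106173181-106173326, minus strand: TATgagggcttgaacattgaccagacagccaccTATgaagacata
Cd3e, chr9:44807632-44808523, minus strand: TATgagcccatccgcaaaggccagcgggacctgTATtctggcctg
Cd3g, chr9:44778818-44779351, minus strand: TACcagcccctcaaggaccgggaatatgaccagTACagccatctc
A second pair of stretches shows the genes that lie furthest apart in base composition, a property that the values of some libraries follow. Each is the middle 60 coding bases, with G and C in capitals. Coro1a has G or C at 33 of these 60 bases (55%) and Ms4a1 at 23 of 60 (38.3%).
Coro1a, chr7:133844837-133844896, minus strand: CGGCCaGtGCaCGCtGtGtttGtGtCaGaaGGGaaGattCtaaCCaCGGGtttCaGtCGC
Ms4a1, chr19:11329122-11329181, minus strand: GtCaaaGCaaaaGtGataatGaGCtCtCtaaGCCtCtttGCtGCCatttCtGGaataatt
Over whole transcripts the GC content was 58.0% for Coro1a, 54.9% for Cd79a, 54.2% for Cd79b, 52.0% for Cd4, 50.4% for Cd3e, 47.3% for Cd8a, 47.1% for Cd3g, 40.8% for Il7r and 40.6% for Ms4a1.

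The deposited values are FPKM, fragments per kilobase of transcript scaled to library depth, in tables of 2 groups of a tissue. A library differs between its tables by 1 factor for all genes, between 0.989 and 1.09, so values are compared within a table. Libraries are named here by tissue, group and number. Estimated depths ran from 15800000 to 49900000 reads in ileum and from 11300000 to 44500000 reads in colon. The labelled tissue is intestinal epithelium, and epithelial markers summed to 6724 to 21463 TPM (FPKM rescaled to the same total in every library), but smooth muscle markers were present too, at 644 to 9672 TPM. Mouse Vdr lay at 12.4 to 60.5 TPM in transgenic libraries and 18.8 to 40.5 TPM in KO libraries, and a value over the whole gene does not check a deletion of part of it. The VDR target Trpv6 lay at 138 to 499 TPM in transgenic colon and 0.126 to 1.14 TPM in KO colon. Ddx3y, which is Y-linked, lay at 11.8 TPM in Colon uninjected 3, a library labelled female, against 0.120 and 0.251 TPM in the other 2 colon libraries labelled female. In treated ileum, a group labelled male, it lay at 1.72 TPM in library 1, against 12.5 and 21.9 TPM in libraries 2 and 4. Ileum uninjected 1, 3 and 4, whose columns are tied to no single label, held 0.0437, 1.94 and 11.2 TPM. Pancreatic acinar genes summed to 121681 TPM in Colon uninjected 3, 57412 TPM in Colon KO 2 and 35269 TPM in Colon treated 4, and to at most 1291 TPM elsewhere. Libraries also differed in how their values followed GC content: the level rose by 1.13 and 1.12 log2 units per 10% GC in Ileum treated 1 and Ileum uninjected 3, by 0.90 and 0.52 in Colon uninjected 1 and 2, and fell by 0.55 in Colon treated 4, with Ileum treated 4 at -0.48 and the rest between -0.31 and 0.16.

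Per length, Coro1a and Cd79a led in both tissues and Il7r came last. In the ileum, the median over 10 libraries was 81.0 TPM for Coro1a (54.7 to 197), 64.9 for Cd79a (16.6 to 111), 26.5 for Cd79b (7.80 to 53.6), 24.6 for Cd3g (13.5 to 29.8) and 14.2 for Cd3e (7.15 to 29.2). Lower in the same order stood Cd8a at 10.6 TPM (6.47 to 17.0), Ms4a1 at 7.46 (0.447 to 18.4), Cd4 at 4.49 (1.76 to 7.83) and Il7r at 1.40 (0 to 4.44). In the colon, the median over 11 libraries was 29.8 TPM for Coro1a (16.9 to 98.3), 17.0 for Cd79a (7.77 to 36.9), 6.31 for Cd79b (0 to 20.8), 5.06 for Cd3g (1.80 to 8.94) and 2.93 for Ms4a1 (0.712 to 3.87). Below these stood Cd3e at 2.79 TPM (1.01 to 6.07), Cd4 at 1.98 (0.629 to 2.77), Cd8a at 1.53 (0.858 to 5.52) and Il7r at 0.618 (0 to 1.12). The ranges of every pair of neighbours in either order overlap, so no step between neighbours is larger than the spread of the libraries.

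**Figure D1:**
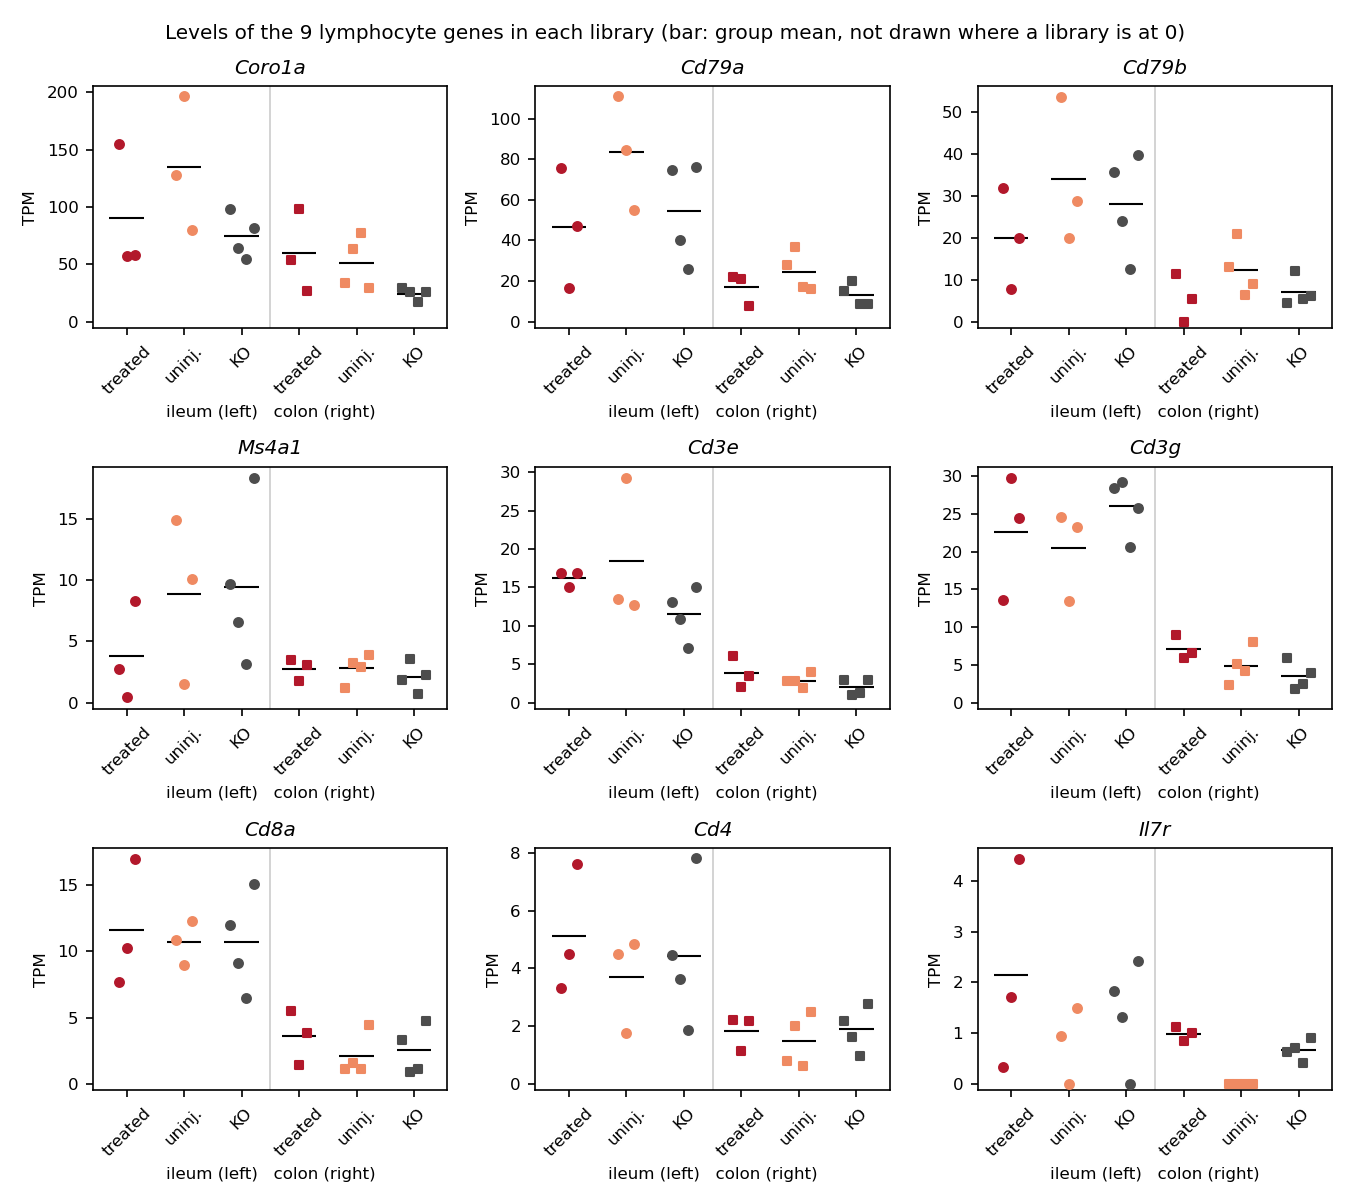
Level of each lymphocyte gene (TPM, linear axes from 0) in each library, in ileum on the left and colon on the right of each panel, with treated, uninjected and KO groups from left to right; points are libraries and bars are group means, not drawn where a library is at 0. Cd3e, Cd3g and Cd8a lie higher in every ileum library than in any colon library, and Il7r lies at 0 in all 4 uninjected colon libraries.

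All 9 genes had the higher median in ileum, as a description of levels across separately scaled tables. The ratio of ileum to colon medians was 6.91 for Cd8a, 5.10 for Cd3e, 4.85 for Cd3g, 4.19 for Cd79b and 3.81 for Cd79a, and between 2.26 and 2.72 for Coro1a, Ms4a1, Il7r and Cd4. The tissues did not overlap for Cd3e, Cd3g and Cd8a, the genes of the T cell receptor and its class I coreceptor, and overlapped for the other 6. Summed over the 9 genes, ileum libraries held 144 to 307 TPM in treated, 229 to 362 in uninjected and 132 to 282 in KO mice. Colon libraries held 59.6 to 133 TPM in treated, 77.3 to 136 in uninjected and 38.0 to 67.3 in KO mice. The colon order rests in part on Coro1a: every uninjected library and 2 of 3 treated libraries lay above all KO libraries in this sum. Without Coro1a the other 8 genes summed to 33.2 to 60.6 TPM in treated, 34.1 to 72.3 in uninjected and 21.1 to 41.5 in KO colon, with overlapping ranges. Colon uninjected 1, 2 and 4, at 49.3, 72.3 and 47.5 TPM, and Colon treated 1 still lay above all KO libraries. Colon uninjected 3 and Colon treated 2, at 34.1 and 34.2 TPM, then lay within the KO range.

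Between groups, none of the 9 genes passed the test in any comparison. The test was limma on log2(FPKM + 0.5), over every gene that averaged 1 FPKM or more, at a Benjamini-Hochberg adjusted p of 0.05. In the ileum, 0 of 9 genes tested were called in treated against KO, where 0.0835% of all genes were, 0 of 8 in uninjected against KO, where 0.00846% were, and 0 of 9 in treated against uninjected, where 0% were. In the colon the counts were 0 of 8 each, beside 0.296% of all genes in treated against KO, 0.0804% in uninjected against KO and 0% in treated against uninjected. At an unadjusted p under 0.05, the 2 comparisons with no call at all held 97 genes in ileum and 143 in colon, none of them among the lymphocyte genes. Calls of any kind were thus rare.

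Groups without overlap were few as well. The shares of all genes given beside them cover the genes that averaged 1 FPKM or more. Il7r lay under this level in colon and in uninjected against KO ileum, so those shares do not include it. Every treated ileum library lay above every KO one for Cd3e alone, beside 3.03% of all genes higher and 1.97% lower without overlap. No lymphocyte gene was free of overlap in uninjected against KO ileum (5.26% of all genes higher, 3.35% lower) or in treated against uninjected ileum (1.48% higher, 1.22% lower). In colon these were Cd3g and Il7r in treated against KO, both higher (4.16% of all genes higher, 3.89% lower), Cd3e higher and Il7r lower in uninjected against KO (1.22% higher, 1.49% lower), and Il7r higher in treated against uninjected (1.03% higher, 0.342% lower).

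What stood out without passing was the direction in colon. In uninjected against KO colon, 7 of the 8 genes tested had a positive log2 difference, with a median of 0.66 beside -0.0071 over all genes, and 4 of the 8 had an unadjusted p under 0.05, beside 4.6% of all genes. In treated against KO colon, 7 of 8 were positive with a median of 0.48 beside -0.0087, and 2 of 8 had an unadjusted p under 0.05, beside 7.31% of all genes. These comparisons share the KO libraries, so their directions are not independent. In treated against uninjected colon the 8 genes split evenly around 0, at 4 positive and 4 negative. In the ileum, 5 of 9 were positive in treated against KO (median 0.10), 5 of 8 in uninjected against KO (median 0.31) and 2 of 9 in treated against uninjected (median -0.22), beside medians of 0.0021, 0.015 and -0.018 over all genes.

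**Figure D2:**
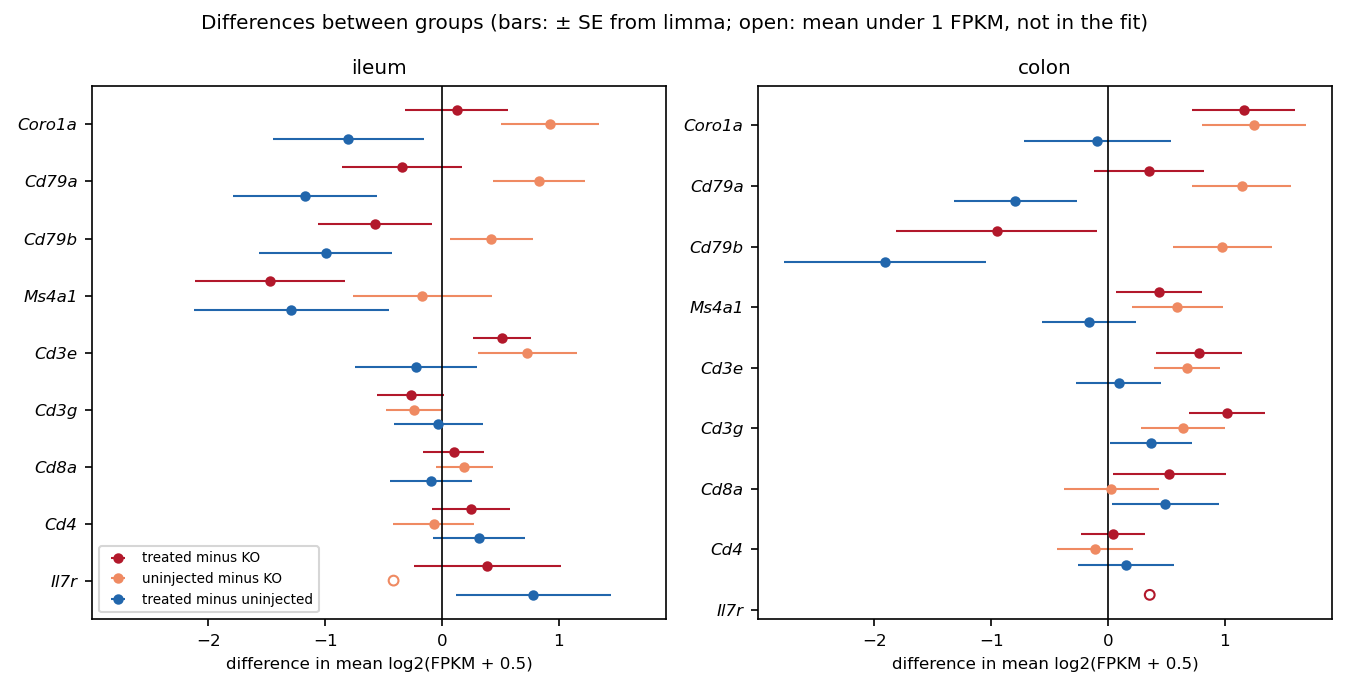
Difference in mean log2(FPKM + 0.5) of each lymphocyte gene between 2 groups (horizontal axis), for 3 comparisons in ileum and 3 in colon; points with bars are the difference ± SE from limma, and open points are genes under a mean of 1 FPKM, left out of the fit, with none drawn for Il7r against uninjected colon, where it is listed at 0. In colon, Coro1a lies above 0 by 1.16 in treated and 1.25 in uninjected mice against KO, and the B cell genes Cd79a and Cd79b lie lower in treated than in uninjected mice in both tissues.

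Among the B cell genes, Cd79a encodes the alpha chain that carries the signal of the B cell receptor. In colon it stood at 22.9, 30.9, 17.5 and 8.68 FPKM in uninjected mice, against 10.1, 13.3, 6.30 and 4.56 FPKM in KO mice. Of the uninjected libraries 3 lay above every KO library, and number 4, the one labelled male, lay within the KO range. The log2 difference was 1.14 (SE 0.43; limma unadjusted p = 0.0239, adjusted p = 0.721), and 1.49 without Colon uninjected 4. With labelled sex in the fit it fell to 0.12, a fit in which the male uninjected library alone sets the contrast with the KO males. That fit counts Colon uninjected 3 as female, though Ddx3y lay at 11.8 TPM in it. Further log2 differences of Cd79a follow. Without Colon uninjected 1 and 2, the libraries that follow GC content, it was 0.61. With the trend of GC and length removed in all libraries it was 0.92, and without both acinar libraries, Colon uninjected 3 and Colon KO 2, it was 1.40. The part of sex, base composition and acinar RNA in this difference was not tested.

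Cd79b, the partner chain, stood in colon at 10.6, 17.4, 6.48 and 4.84 FPKM in uninjected mice, against 3.03, 8.16, 3.91 and 3.12 FPKM in KO mice. Uninjected 1 and 2 lay above every KO library and 3 and 4 among them, with a log2 difference of 0.98 (SE 0.42; limma unadjusted p = 0.0443, adjusted p = 0.721), and 0.38 without the libraries that follow GC content. With labelled sex in the fit the difference was 0.18, where Colon uninjected 4, labelled male, alone sets the contrast with KO. It was 0.77 with the trend of GC and length removed and 1.41 without both acinar libraries. In treated colon it stood at 7.54, 0 and 3.32 FPKM, against 10.7, 17.6, 6.49 and 4.86 FPKM in uninjected colon. The exact 0 belongs to Colon treated 2, while every other colon library had 62 to 393 reads of the gene and this library held Cd79a at 21.1 TPM, near the highest treated value of 21.9 TPM. Whether this exact 0 is a failed estimate was not tested, so it is given as listed at 0. The log2 difference of -1.91 (SE 0.86; limma adjusted p = 1.0) rests on it. Against KO colon the treated group differed by -0.95 with that library and by 0.23 without it.

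In the ileum the 3 B cell genes were lowest in 1 treated library. Cd79a stood at 70.9, 14.0 and 30.5 FPKM in treated mice, against 85.2, 97.9 and 43.4 FPKM in uninjected mice, with a log2 difference of -1.18 (SE 0.62; limma unadjusted p = 0.0927, adjusted p = 1.0). Cd79b differed by -0.996 (SE 0.57; limma adjusted p = 1.0) between the same groups. Ms4a1, which encodes CD20, a membrane protein of mature B cells that plasma cells have lost, stood at 2.55, 0.378 and 5.36 FPKM in treated mice, against 11.5, 1.75 and 7.96 FPKM in uninjected mice. Its difference of -1.29 (SE 0.84; limma adjusted p = 1.0) did not exceed the spread, which in uninjected mice alone covered 1.75 to 11.5 FPKM. Without Ileum treated 2 the differences were -0.61 for Cd79a, -0.49 for Cd79b and -0.53 for Ms4a1.

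Ms4a1 was the B cell gene furthest from KO in treated ileum. It stood at 2.78, 0.408 and 5.73 FPKM in treated mice, against 8.10, 5.96, 3.43 and 12.9 FPKM in KO mice. Treated 1 and 2 lay below all KO libraries and treated 4 within them. The log2 difference was -1.47 (SE 0.64; limma unadjusted p = 0.0462, adjusted p = 0.939), and -0.70 without Ileum treated 2. The test of the difference between tissues, ileum minus colon, gave -1.91 for Ms4a1 (SE 0.80; limma unadjusted p = 0.0324, adjusted p = 0.977). The genes that passed such a test made up 0.00803% of all in treated minus KO, 0.00809% in uninjected minus KO and 0% in treated minus uninjected (28 genes at an unadjusted p under 0.05), and none was a lymphocyte gene. In colon Ms4a1 was low throughout, at 0.994, 2.68, 3.01 and 2.11 FPKM in uninjected mice, against 1.21, 2.37, 0.513 and 1.18 FPKM in KO mice.

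Ileum treated 2 stood apart in its B cell genes and not in its T cell genes. It held Cd79a at 16.6 TPM, Cd79b at 7.80 TPM and Ms4a1 at 0.447 TPM, the lowest of the 10 ileum libraries for each. In the same library Cd3e lay at 15.1 TPM and Cd3g at 29.8 TPM, the highest Cd3g value of all. The sum of the 3 B cell genes over the sum of Cd3e and Cd3g was 0.552 there and 1.49 to 4.72 in the other 9 ileum libraries. Genes of lymphoid tissue stroma and follicle epithelium, a list of 14, summed to 84.8 TPM in it and to 110 to 307 TPM in the other 9, with no gene of the list at 0 in any. Germinal centre genes were not low in it, at 45.1 TPM beside 26.3 to 72.3 TPM in the other 9. Neither were plasma cell genes, at 2313 TPM beside 785 to 4103 TPM. Whether a Peyer's patch or follicle was in the piece is given by no label, and its part was not tested.

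The CD3 chains take the signal of the T cell receptor into the cell. Cd3e, the epsilon chain, stood in ileum at 17.2, 13.8 and 11.6 FPKM in treated mice, against 10.9, 9.84, 7.72 and 10.5 FPKM in KO mice. Every treated library lay above every KO library, and the log2 difference was 0.51 (SE 0.25; limma unadjusted p = 0.0694, adjusted p = 0.939). In uninjected ileum it stood at 10.7, 35.1 and 10.2 FPKM, against 10.5, 9.45, 7.34 and 10.0 FPKM in KO mice. There the difference of 0.73 (SE 0.42; limma adjusted p = 0.665) came down to 0.16 without Ileum uninjected 3, the library at 35.1 FPKM.

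In colon Cd3e was lower and closer to the limit of the filter. It stood at 2.25, 2.33, 2.01 and 2.15 FPKM in uninjected mice, against 1.91, 0.678, 0.890 and 1.49 FPKM in KO mice, with no overlap. The log2 difference was 0.68 (SE 0.28; limma unadjusted p = 0.0394, adjusted p = 0.721). On the TPM scale, which gives each library the same total, the groups overlapped at 1.95 to 3.94 TPM in uninjected mice, against 1.01 to 2.88 TPM in KO mice. In treated colon it stood at 4.28, 1.58 and 2.22 FPKM, against 2.03, 0.719, 0.954 and 1.58 FPKM in KO mice, a difference of 0.78 (SE 0.37; limma adjusted p = 0.711).

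Cd3g, the gamma chain, was the lymphocyte gene with the smallest p in treated against KO colon. It stood at 6.30, 4.59 and 4.29 FPKM in treated mice, against 4.19, 1.28, 1.94 and 2.15 FPKM in KO mice. No treated library reached down to the KO range, though the lowest treated and the highest KO value differ by little. On the TPM scale the groups overlapped, at 5.91 to 8.94 TPM in treated mice, against 1.80 to 5.96 TPM in KO mice. The log2 difference was 1.02 (SE 0.33; limma unadjusted p = 0.0142, adjusted p = 0.481). In ileum the same difference was -0.27, with 13.9, 27.2 and 16.9 FPKM in treated mice, against 23.8, 26.4, 22.3 and 18.1 FPKM in KO mice. The ileum effect minus the colon effect was -1.29 (SE 0.44; limma unadjusted p = 0.0109, adjusted p = 0.977), which did not pass.

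Cd3e and Cd3g did not keep step in the ileum libraries that follow GC content. The TPM of Cd3e over Cd3g was 2.17 in Ileum uninjected 3, 1.24 in Ileum treated 1 and 1.17 in Colon uninjected 1, and between 0.344 and 0.735 in the other 18 libraries. Those 3 libraries have the steepest GC trends of the 21. The chains are parts of 1 receptor, and both genes lie on chromosome 9, at 44806826-44817673 for Cd3e and 44777655-44788514 for Cd3g.

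The coreceptors were the steadiest of the lymphocyte genes between groups. Cd8a, the alpha chain of CD8 of cytotoxic and many intraepithelial T cells, stood in ileum at 7.87, 9.36 and 11.7 FPKM in treated mice, against 10.1, 8.20, 6.99 and 10.6 FPKM in KO mice. It stood at 8.64, 10.7 and 9.90 FPKM in uninjected mice, against 9.67, 7.88, 6.65 and 10.1 FPKM in KO mice. The 3 groups overlap almost wholly, with log2 differences of 0.10, 0.19 and -0.09 in treated against KO, uninjected against KO and treated against uninjected ileum. In colon Cd8a stood at 3.89, 1.08 and 2.50 FPKM in treated mice, against 2.32, 0.611, 0.858 and 2.62 FPKM in KO mice, which differ by 0.53 (SE 0.48; limma adjusted p = 0.823).

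Cd4, the coreceptor of helper T cells, which some innate lymphoid and dendritic cells carry too, stood in ileum at 3.38, 4.11 and 5.24 FPKM in treated mice, against 3.75, 3.28, 2.01 and 5.49 FPKM in KO mice. In colon it stood at 1.56, 0.885 and 1.40 FPKM in treated mice, against 1.52, 1.15, 0.754 and 1.52 FPKM in KO mice. Its log2 differences over the 6 comparisons ran from -0.11 to 0.31, so that Cd4 had the narrowest span of the genes tested in all of them. An adjusted p near 1 does not show that the groups are alike: the SE of these differences, 0.28 to 0.41, leaves room for a change of that size either way.

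Il7r encodes the alpha chain of the receptor for interleukin 7, the cytokine that naive and memory T cells and innate lymphoid cells need to survive. In colon it was listed at 0 in all 4 uninjected libraries. It stood at 0.410, 0.470, 0.301 and 0.464 FPKM in the KO libraries of the same table, and at 0.749, 0.618 and 0.619 FPKM in treated mice in the table shared with uninjected mice. The other 7 colon libraries held 21 to 73 reads of it, and the uninjected ones none.

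At a mean under 1 FPKM, Il7r was outside the limma fit in colon and in 1 ileum comparison, so its mean FPKM was compared by an exact two-sided permutation test, in 4 comparisons. In uninjected against KO colon the p was 0.0286, the smallest that 70 regroupings allow. In treated against uninjected colon and in treated against KO colon it was 0.0571, the smallest that 35 regroupings allow, and a value under 0.05 could not be reached. Adjusted over the 4 exact tests, these p-values are all 0.0762, and that of uninjected against KO ileum is 0.514. Treated libraries, at 0.792, 0.656 and 0.649 FPKM, lay above the KO libraries, at 0.435, 0.498, 0.323 and 0.494 FPKM, with no overlap. On the TPM scale these groups overlapped, at 0.844 to 1.12 TPM in treated mice, against 0.418 to 0.899 TPM in KO mice.

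The zeros of Il7r need care, since the tables list 0 for abundant genes in single libraries. Chosen after its values were seen, Ywhaz, a 14-3-3 protein of nearly every cell, was listed at 0 in Colon uninjected 3 while the other 10 colon libraries held 267 to 4508 reads. A library lists between 0 and 76 genes at 0 that have at least 20 reads in every other library of its tissue, and Il7r itself is listed at 0 in Ileum uninjected 3 and Ileum KO 3 beside 19 to 268 reads in the other 8 ileum libraries. A 0 in a whole group was rarer. Of 9443 genes with at least 20 reads in the other 7 colon libraries, 1 was listed at 0 in all 4 uninjected ones, Il7r. No such gene was found for any other group of either tissue. Whether the zeros of Il7r are failed estimates was not tested. No mean with an error and no fold is therefore given for Il7r in colon. Where measured in ileum, it stood at 0.331, 1.56 and 3.05 FPKM in treated mice, against 1.54, 1.19, 0 and 1.70 FPKM in KO mice, with overlapping groups and a log2 difference of 0.39 (limma adjusted p = 0.941).

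Coro1a encodes coronin-1A, an actin-binding protein of leukocytes that naive T cells need to survive, and it is not specific to either lymphocyte. In colon it stood at 27.2, 52.8, 79.3 and 16.2 FPKM in uninjected mice, against 19.4, 17.3, 12.2 and 13.2 FPKM in KO mice. Uninjected 1 to 3 lay above all KO libraries and uninjected 4, the one labelled male, within them. The log2 difference was 1.25 (SE 0.44; limma unadjusted p = 0.0191, adjusted p = 0.721), the largest positive one among the lymphocyte genes in any of the 6 comparisons. It ranged from 0.89 without Colon uninjected 3 to 1.64 without Colon uninjected 4, and was 0.087 with labelled sex in the fit. That fit counts Colon uninjected 3, the highest library at 79.3 FPKM, as female. Its Ddx3y lay at 11.8 TPM, against 0.120 and 0.251 TPM in Colon uninjected 1 and 2, so its label is in doubt.

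In treated colon Coro1a stood at 38.0, 76.4 and 17.1 FPKM, against 20.6, 18.3, 13.1 and 14.0 FPKM in KO mice. Treated 1 and 2 lay above the KO range and treated 4 within it, with a log2 difference of 1.16 (SE 0.44; limma unadjusted p = 0.0303, adjusted p = 0.614), or 0.64 without Colon treated 2. In ileum it stood at 102, 236 and 64.6 FPKM in uninjected mice, against 79.4, 56.1, 56.2 and 54.4 FPKM in KO mice, a difference of 0.92 (SE 0.42; limma adjusted p = 0.665). Ileum uninjected 3, at 236 FPKM, carries much of it, and without that library the difference was 0.41.

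Coro1a did not follow Ms4a1 from library to library, with Pearson r of -0.038 on log2(TPM + 0.5) over 10 ileum libraries and 0.30 over 11 colon libraries. With Cd79a its r was 0.77 in ileum and 0.62 in colon. In TPM the ratio of Coro1a to Ms4a1 was 130 in Ileum uninjected 3, 129 in Ileum treated 2, 56.9 in Ileum treated 1 and 55.6 in Colon treated 2, and between 4.45 and 27.3 in the other 17 libraries. Ileum uninjected 3 and Ileum treated 1 are the libraries with the steepest GC trends, and Coro1a and Ms4a1 are the genes of highest and lowest GC content. Ileum treated 2 and Colon treated 2 have GC trends of only -0.11 and 0.12 log2 units per 10% GC, so the ratio was also high without one. Across the 10 ileum libraries the GC trend correlated with the level at r = 0.87 for Coro1a, 0.56 for Cd3e, 0.41 for Cd79a and 0.11 for Cd79b. Negative values were -0.88 for Cd3g, -0.73 for Il7r, -0.63 for Cd4, -0.56 for Cd8a and -0.44 for Ms4a1. Across the 11 colon libraries r was 0.76 for Cd79a, 0.26 for Coro1a and 0.24 for Cd79b. The others in colon ran from -0.55 for Cd8a to -0.11 for Cd3e. The order of r was not that of GC content: Cd4, at 52.0% GC, was negative in both tissues. These are descriptions over libraries in which groups, depth and 2 steep libraries coincide.

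**Figure D3:**
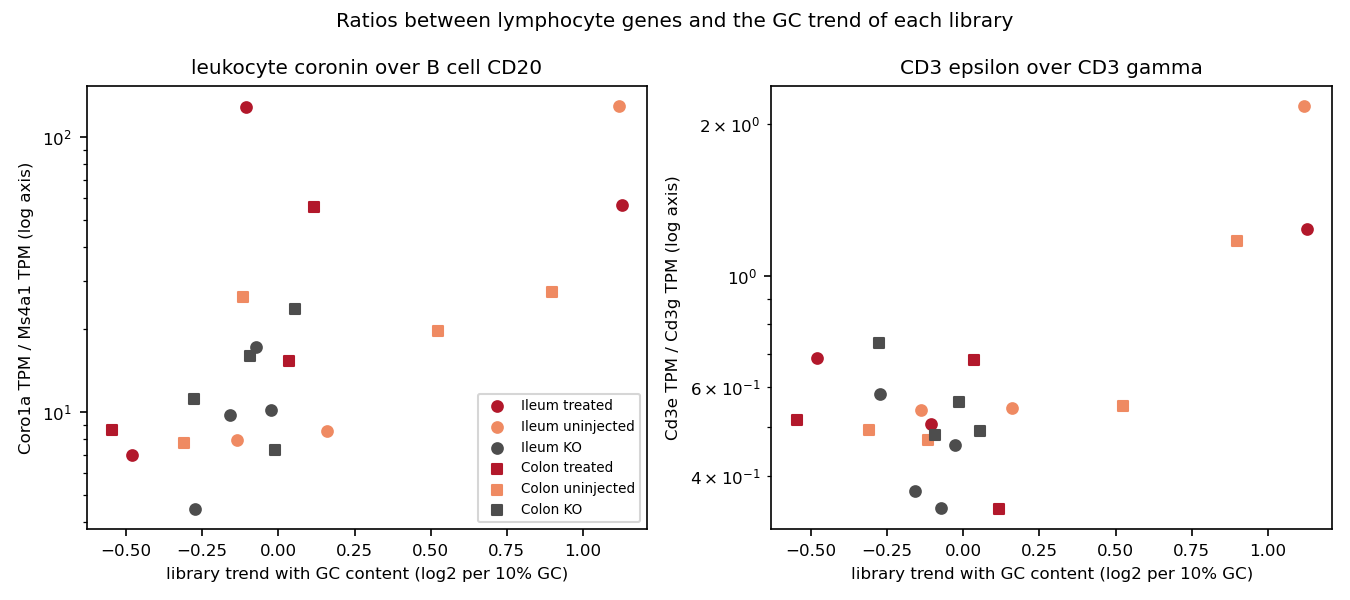
Ratio of Coro1a to Ms4a1 (left) and of Cd3e to Cd3g (right) in TPM, on log axes, against each library's trend with GC content in log2 units per 10% GC; each point is a library, coloured by group and shaped by tissue. The highest Cd3e to Cd3g ratios, 2.17, 1.24 and 1.17, belong to the 3 libraries with the steepest trends, whereas Coro1a to Ms4a1 is also high, at 129 and 55.6, in 2 libraries with trends near 0.

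Over the 10 ileum libraries, the 2 chains of the B cell receptor rose and fell together (Cd79a with Cd79b, Pearson r = 0.91 on log2(TPM + 0.5)), and Ms4a1 went with Cd79b (r = 0.82). Cd8a, Cd4 and Il7r went together at r = 0.89 for Cd8a with Cd4, 0.89 for Cd8a with Il7r and 0.94 for Cd4 with Il7r. Without the 2 ileum libraries that list Il7r at 0 these values were 0.95, 0.91 and 0.85. The CD3 chains ran against each other there, at r = -0.49. Over the 11 colon libraries r was 0.81 for Cd3e with Cd3g, 0.83 for Cd3e with Cd8a, 0.76 for Cd3g with Cd8a and 0.81 for Cd8a with Cd4. Cd79a and Cd79b reached only r = 0.24 in colon, where Cd79b is listed at 0 in Colon treated 2. The points share library, depth and base composition, no p is attached to these values, and their differences between the tissues were not tested.

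**Figure D4:**
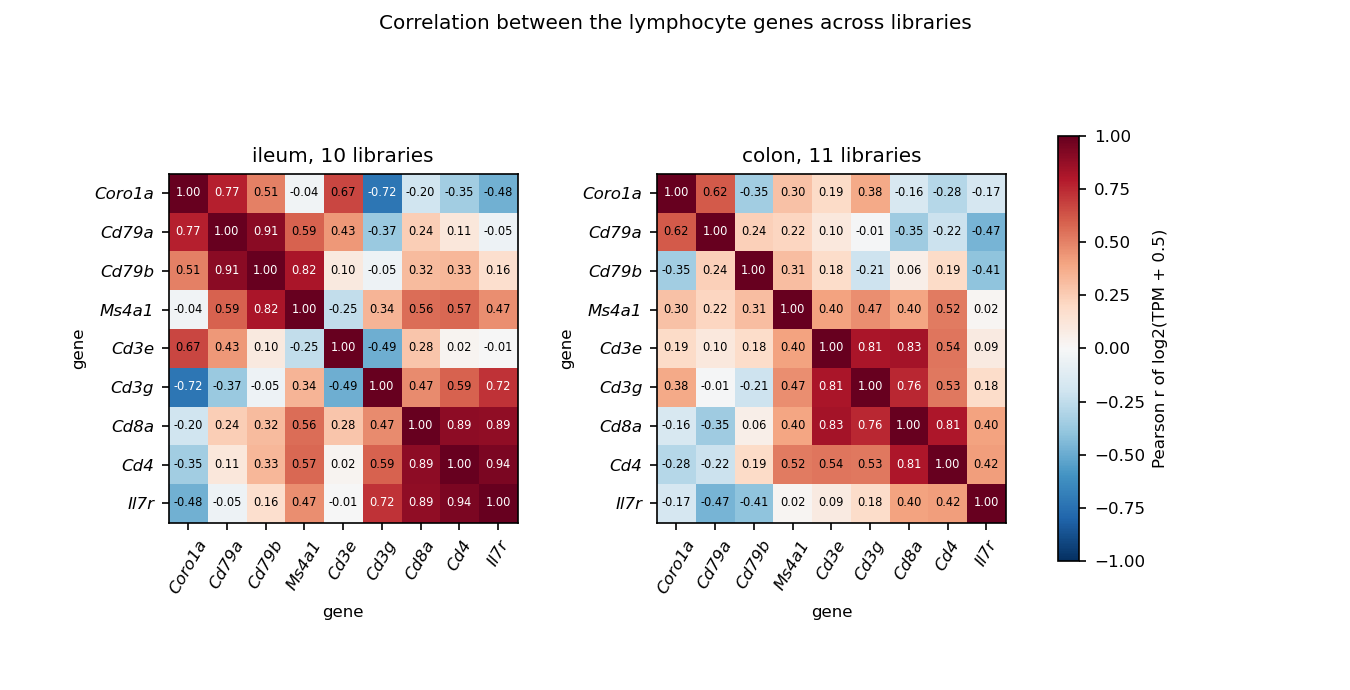
Pearson r between each pair of lymphocyte genes on log2(TPM + 0.5), as a colour scale, over 10 ileum libraries (left) and 11 colon libraries (right). In ileum r is 0.91 for Cd79a with Cd79b and 0.89 to 0.94 among Cd8a, Cd4 and Il7r, which 2 ileum libraries list at 0. In colon r is 0.76 to 0.83 among Cd3e, Cd3g and Cd8a.

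The genes whose levels ran most like a lymphocyte gene were ranked by the mean of the r values of the 2 tissues. For Cd79a they were Faim3 (0.945), Ptprcap (0.905), Tspan32 (0.856), H2-Oa (0.854) and S1pr4 (0.848). Those nearest to Cd3e were Cd7 (0.918), Lck (0.854), Nkg7 (0.83), H2-Q9 (0.823) and Tap1 (0.819). Coro1a had Ltb (0.922), Snx8 (0.907), Podnl1 (0.887), Il4i1 (0.885) and Psmd3 (0.876), and Il7r, ranked in ileum alone, Lpar1 (0.980), Man1a (0.971), Gramd1b (0.968), Hnrnpab (0.966) and Rbm7 (0.965). The 5 genes nearest to Coro1a had a GC content of 58.3% to 62.6%, beside 58.0% for Coro1a itself. The part of base composition in this ranking was not tested. The values for Il7r rest in part on the 2 libraries that list it at 0, and without these they were 0.927 to 0.958 over 8 libraries for the same 5 genes.

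The wider lymphoid genes were read in 9 lists with 126 entries, of which 102, 103 and 101 were tested in ileum and 77, 78 and 81 in colon, for treated against KO, uninjected against KO and treated against uninjected. Of all of them 1 passed, and that was in treated against KO colon. Tyrobp, which encodes the signalling adaptor DAP12 of natural killer and myeloid cells, stood at 51.1, 46.5 and 42.4 FPKM in treated mice, against 19.5, 19.9, 18.4 and 16.3 FPKM in KO mice. The groups do not overlap, and the log2 difference was 1.31 (SE 0.15; limma adjusted p = 0.0132). It passed in 10 of 17 alternatives, with log2 differences of 1.09 to 1.37 and adjusted p-values up to 0.571 by limma with 3 groups in 1 fit. Without any 1 of the 4 KO libraries the limma adjusted p was 0.0568 to 0.0755. All 8 genes tested of the cytotoxic and intraepithelial list were higher in treated than in KO colon, with a median of 0.93, but the other 7 did not pass, among them Fcer1g (36.2 ± 9.49 in treated mice against 18.3 ± 2.45 FPKM in KO mice) and Klrd1 (5.98 ± 2.86 against 1.69 ± 0.914 FPKM; SD, 3 and 4 libraries).

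Of 14 pan-leukocyte and leukocyte actin genes tested there, 11 were positive with a median of 0.50, and of 5 germinal centre genes all were, with a median of 0.46; none passed. Markers of other cells moved with this comparison. A myeloid list, 10 of whose 11 genes were found, summed to 387 to 495 TPM in treated colon, against 179 to 315 TPM in KO colon, with S100a9 at 0 in 1 treated library and S100a8 or S100a9 at 0 in 2 KO libraries. A smooth muscle list summed to 1758 to 2413 TPM in treated colon, against 3236 to 4753 TPM in KO colon, with all 6 of its genes lower. Their part in the levels of Tyrobp, Cd3g and Coro1a in treated colon was not tested. The myeloid list overlapped in uninjected and KO colon, at 129 to 324 TPM in uninjected mice against 179 to 315 TPM in KO mice. Endothelial genes summed to 6.63 to 30.3 TPM in uninjected colon, against 29.5 to 49.6 TPM in KO colon. All 4 tested were negative there (median -0.67), with 3 at a limma unadjusted p under 0.05 and none passing, and of 6 stroma genes 2 were positive (median -0.38). Their part in the differences of Coro1a, Cd79a, Cd79b and Cd3e in uninjected colon was not tested.

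The B cell list, of other genes than the 9, had 19 or 20 of its 22 genes tested in ileum, and none passed. In treated against uninjected ileum all 19 had a negative log2 difference, with a median of -0.88 beside -0.018 over all genes. Plasma cell genes ran the other way there, with 7 of 8 positive (median 0.25) and none passing. Blk, a Src-family kinase of B cells, averaged 1.77 ± 1.80 FPKM in treated mice and 4.34 ± 0.690 FPKM in uninjected mice (SD, 3 libraries each), with limma unadjusted p = 0.0535 and adjusted p = 1.0. The list summed to 47.1 TPM in Ileum treated 2 and to 61.3 to 248 TPM in the other 9 ileum libraries, and its genes are not independent of each other. Markers of other cells moved with the same comparison, with none passing: 1 of 8 epithelial genes was positive (median -0.50), as were 4 of 4 endothelial genes (0.67), 5 of 6 stroma genes (0.64) and 8 of 9 myeloid genes (0.30). Their part in the B cell values was not tested. In uninjected against KO ileum 17 of 20 were positive with a median of 0.32, and in treated against KO ileum 3 of 19 with a median of -0.38. In colon 9 of 11 were positive in uninjected against KO (median 0.54), 7 of 9 in treated against KO (0.17) and 4 of 12 in treated against uninjected (-0.26).

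The list of T cell receptor signalling genes had 7 of 14 positive in treated against KO ileum (median 0.07), 11 of 13 in uninjected against KO ileum (0.58) and 3 of 13 in treated against uninjected ileum (-0.23). In colon 6 of 7, 4 of 6 and 5 of 8 were positive in the same comparisons, with medians of 0.24, 0.10 and 0.19. Closest to passing in treated against KO colon was Lcp2, the adaptor SLP-76, at 2.07 ± 0.267 FPKM in treated mice against 0.851 ± 0.157 FPKM in KO mice (limma adjusted p = 0.244). Genes of plasma cells, the antibody-secreting stage of B cells, summed to 1053 to 4103 TPM in treated, 785 to 2644 in uninjected and 1887 to 3308 in KO ileum, with overlapping ranges. Of them 3 of 8 were positive in treated against KO ileum (median -0.13) and 3 of 8 in uninjected against KO ileum (-0.35). In treated against KO, uninjected against KO and treated against uninjected colon, 2 of 7 were positive each, with medians of -0.11, -0.26 and -0.10. Of the genes around Il7r, 4 of 11 were positive in treated against KO ileum (median -0.21) and 3 of 10 in uninjected against KO colon (median -0.08), and no other coronin passed in any comparison. Coro1b, which many cell types express, averaged 322 ± 53.7 FPKM in uninjected colon and 245 ± 36.9 FPKM in KO colon (SD, 4 libraries each).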

How the data were processed

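Poly(A) RNA of 21 ileum and colon samples was sequenced, and groups follow the labels, which count 4 uninjected and 3 treated colon samples where the series' design text has 3 and 4. The values were deposited by the authors as FPKM per gene in 6 tables, and CLC Genomics Workbench did the mapping, per the labels' protocols. Without saying what each was for, the submitters' processing notes list DESeq2, DESeq 1.14.0, kallisto 0.45.0 and the build mm9. No source used here gives the annotation or filters. All per-sample columns were used. Columns of the treated groups and of uninjected ileum are tied to their group only, and bear the column's number here.

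The 9 genes and all gene lists were chosen with earlier results of these data known. The 9 are always named, and other genes only if a list member passed or had 1 of the 4 smallest p-values of its list, or as the 5 most alike in pattern, among genes averaging 1 TPM or more. The 9 lymphoid lists and 8 lists of other cell types were described by counts and medians, and Vdr, Trpv6 and Ddx3y served as label checks. Values of some list genes are not reported here.

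Within a table, limma 3.58.1 (R 4.3.3) with an intensity trend tested log2(FPKM + 0.5), two-sided, after a filter at a mean of 1 FPKM, which understates changes of low genes. Differences between tissues, ileum minus colon, came from 1 fit over both. Genes under the filter had an exact permutation test of the mean (scipy 1.17.1). TPM were used as descriptions only. Reads were recovered from the FPKM steps for 76.5% of 18255 ileum and 76.8% of 18779 colon genes above 0, whole within 0.01, Cd8a not among them, and gave estimated depths, not totals stated by the submitters. On those reads voom called 7, 0 and 0 genes in ileum and 32, 8 and 0 in colon, for treated minus KO, uninjected minus KO and treated minus uninjected. The fits were tested on simulated data. Coordinates and sequences came from GENCODE vM1 on NCBIM37 (mm9), matched by symbol. Alternatives were other pseudocounts (0.1 and 1), no filter, quantile normalization, no trend, 3 groups in 1 fit, acinar genes out, single libraries out, labelled sex and a replicate block. Removal of the trend with GC and length, leaving out the libraries with a GC trend over 0.5, voom, the sum without Coro1a and the correlations without libraries listing Il7r at 0 were chosen after seeing the data.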

Additional observations from a re-analysis of the deposited data

Results flagged for a closer look

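In the groups of 4 libraries, 1 library stood far from the other 3 for 2 genes. Cd3g lay at 1.91 FPKM in Colon uninjected 1, against 4.23 to 4.35 FPKM in the other uninjected colon libraries, and the gap to the nearest of them was 0.951 of the whole range. In the same library Cd3e, at 2.25 FPKM, did not stand apart from the others at 2.01 to 2.33 FPKM. Coro1a lay at 79.4 FPKM in Ileum KO 1, against 54.4 to 56.2 FPKM in the other KO ileum libraries, with a gap of 0.926 of the range. Gaps this wide arise by chance in about 1 of 20 groups, and 26 combinations of a gene and a group were looked at.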

How the results depend on the processing

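No lymphocyte gene passed in any of the 9 tests, and this held under all alternatives but 3, each of which called 1 gene, Il7r: without the filter in uninjected minus KO colon (limma adjusted p = 0.00973) and in treated minus uninjected colon (adjusted p = 0.0234), and with voom against KO colon (adjusted p = 0.0398; 0.803 for treated minus uninjected colon). All rest on the libraries that list Il7r at 0. Of 918 alternative values of the log2 differences, 858 kept their sign and 60 turned it, 30 of these with 1 library left out, and the lowest limma adjusted p of a gene inside the filter was 0.0670. Of the differences between tissues, the 918 include only Ms4a1 and Cd3g in treated minus KO, kept because their limma unadjusted p was under 0.05. Some settings left out the same library and so counted a fit more than once. All values that turned belong to differences with no call, and the cause was not tested.

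In treated minus KO ileum Coro1a went to -0.0044 with quantile normalization, -0.12 with the trend of GC and length removed and -0.47 without the GC-trend libraries. In uninjected minus KO ileum Cd4 went to 0.015 with quantile normalization and 0.16 without the GC-trend libraries, and Ms4a1 to 0.31 with the trend removed and 0.55 without those libraries. In treated minus uninjected ileum Cd3g went to 0.0034 with quantile normalization, 0.12 with 3 groups in 1 fit or acinar genes out and 0.096 without the GC-trend libraries; Cd8a went to 0.055 with 3 groups or acinar genes out and 0.11 without the GC-trend libraries, and Cd3e to 0.21 without them. In treated minus KO colon Cd4 went to -0.0037 with 3 groups and -0.0076 with acinar genes out. In uninjected minus KO colon Cd4 went to 0.15 with quantile normalization, 0.0066 without both acinar libraries and 0.18 with sex in the fit, and Cd8a to -0.18 with 3 groups, -0.157 with acinar genes out and -0.16 without both acinar libraries. In treated minus uninjected colon Cd3e went to -0.069 and Cd4 to -0.052 with quantile normalization, Ms4a1 to 0.029 with 3 groups, and Coro1a to 0.14 with 3 groups, 0.11 with acinar genes out, 0.27 without both acinar libraries and 0.14 with the GC trend removed.

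With 1 library left out at a time, differences that turned ranged as follows. In treated minus KO ileum they were Coro1a (-0.47 to 0.52), Cd79a (-0.94 to 0.22), Cd8a (-0.043 to 0.23) and Il7r (-0.11 to 0.95); in uninjected minus KO ileum Ms4a1 (-0.66 to 0.55) and Cd4 (-0.29 to 0.16); and in treated minus uninjected ileum Cd3e (-0.52 to 0.34), Cd3g (-0.30 to 0.18) and Cd8a (-0.24 to 0.044). In treated minus KO colon they were Cd79b (-1.82 to 0.23) and Cd4 (-0.11 to 0.21), in uninjected minus KO colon Cd8a (-0.23 to 0.26) and Cd4 (-0.28 to 0.024), and in treated minus uninjected colon Coro1a (-0.61 to 0.45), Ms4a1 (-0.42 to 0.015) and Cd3e (-0.24 to 0.36).

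Over all genes, the number called ranged from 1 to 14 in treated minus KO ileum, 0 to 5 in uninjected minus KO ileum, and was 0 throughout in treated minus uninjected ileum; in colon it ranged from 17 to 59 for treated minus KO, 1 to 68 for uninjected minus KO and 0 to 5 for treated minus uninjected. Leaving out any KO library gave 3 or 4 in treated minus KO ileum, 0 in uninjected minus KO ileum and 17 to 24 in treated minus KO colon. Without Ileum uninjected 1, 3 or 4 uninjected minus KO ileum had 3, 0 or 5. Against KO, uninjected colon had 68 without Colon uninjected 4 and 2 or 3 without Colon uninjected 2 or Colon KO 1, 2 or 4, and treated minus uninjected colon had 4 without Colon uninjected 3. Fitting 3 groups at once shifted the median of all genes to -0.28 and -0.11 for uninjected minus KO in colon and ileum, and to 0.21 and 0.12 for treated minus uninjected in colon and ileum, so values above from that fit are to be read relative to these. Leaving acinar genes out shifted it likewise, to -0.26 and -0.11 and to 0.18 and 0.12, and a sign that turned under either setting can come from this shift of all genes. Labelled numbers allow a replicate block only in uninjected minus KO colon. It called 3 genes there instead of 10 and no lymphocyte gene (Coro1a 1.25). Deviations of libraries with the same number correlated at 0.00368, -0.00265 and -0.00643 for numbers 1 to 3 and at 0.671 for number 4. These values differ and do not settle whether the numbers pair the samples, which were treated as unpaired. For the other comparisons no paired analysis was possible because the columns are tied to a group and not to a numbered sample. Depth limits the lowest values: Ms4a1 in Ileum treated 2 rests on 14 reads and Il7r in colon on 21 to 73.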

Other observations

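No gene of the lymphoid tissue around these cells passed in treated against KO colon. Cxcl13, the chemokine that draws B cells into follicles, averaged 12.8 ± 7.23 FPKM in treated mice and 4.46 ± 1.10 FPKM in KO mice (SD, 3 and 4 libraries; limma adjusted p = 0.307). Ccl20, made by the epithelium over follicles, averaged 11.2 ± 5.19 FPKM in treated mice and 3.55 ± 1.60 FPKM in KO mice (limma adjusted p = 0.310). Of the 12 genes of that list tested in treated against KO colon, 10 were positive with a median of 0.38. Ltb, the lymphotoxin of lymphocytes that organises such tissue, averaged 17.0 ± 14.0 FPKM in uninjected colon and 4.36 ± 1.06 FPKM in KO colon (limma unadjusted p = 0.0131, adjusted p = 0.721), a spread among uninjected libraries nearly as large as their mean.

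Of all genes in the lymphoid lists, Rgs13 had the smallest p in uninjected against KO ileum, and it ran against the B cell genes there. It averaged 1.91 ± 0.260 FPKM in uninjected mice and 4.86 ± 0.593 FPKM in KO mice (SD, 3 and 4 libraries), a log2 difference of -1.15 (SE 0.23; limma unadjusted p = 0.000777, adjusted p = 0.665). Rgs13 encodes a regulator of G protein signalling found in germinal centre B cells and also in tuft cells of the epithelium. In colon the ratio of the B cell genes to Cd3e and Cd3g, in TPM, was 1.61 to 2.88 in treated, 2.40 to 8.28 in uninjected and 2.45 to 12.6 in KO libraries, the highest being Colon KO 2, a library rich in pancreatic acinar transcripts.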
